A study of Mus musculus with 3 samples.

Results

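Dbh, the enzyme that makes noradrenaline, was examined together with 8 other genes of sympathetic neurons, chromaffin cells and neural crest (Th, Ddc, Phox2a, Chga, Sox10, Elavl4, Stmn2 and Tubb3) in cells sorted from the mouse fetal kidney. The genes were chosen after measured values on these same arrays, among them the distances of Dbh, Elavl4, Stmn2, Sox10 and Tubb3 from background, were known. Their values and calls are therefore descriptions, and no p-value is given for them. All probe sets whose platform annotation names a single symbol among the 9 were taken, which gave 17 of 34945 such probe sets and 9 of 18193 genes. No further probe set named a member beside another gene.

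RNA came from kidneys of CD-1 mice at E15.5 of gestation (Theiler stage 23) that carried the transgene Tg(Meis1-EGFP)FO156Gsat, in which control elements of Meis1 drive a green fluorescent protein. Each of 3 samples was a pool of about 20 kidneys, from which GFP-positive cells were sorted, and each pool was hybridised to 1 array. All samples form 1 group with no unsorted kidney, no GFP-negative cells and no wild type, so the only comparison is with background on the same array. The sample labels name the cells nephrogenic interstitium, whereas the series title speaks of peripheral blastema. All 8 stromal markers, among them Foxd1 and Meis1, were above background.

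Catecholamines are built in steps. Tyrosine hydroxylase (Th) makes L-DOPA from tyrosine, aromatic L-amino acid decarboxylase (Ddc) turns L-DOPA into dopamine, dopamine beta-hydroxylase (Dbh) turns dopamine into noradrenaline inside vesicles, and Pnmt methylates noradrenaline to adrenaline. Sympathetic neurons and adrenal chromaffin cells descend from the neural crest, whose migrating cells and glia carry the transcription factor Sox10, and switch on Th and Dbh under the control of factors such as Phox2a. Sympathetic nerves reach the kidney along its vessels, and the adrenal gland lies beside it. Kidney tubule cells also carry Ddc and make dopamine without being neurons.

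Phox2a is a homeodomain factor that binds sites with the core ATTA in the Dbh promoter, and cyclic AMP responsive elements of the form TGACGTCA are known from catecholamine genes. The promoters of Dbh and Th, the hydroxylases of the pathway, are shown from 250 bases before to 50 after the start, from RefSeq (GRCm38.p6). Dbh lies on the plus strand at chr2:27165257-27165556 and Th on the minus strand at chr7:142899946-142900245. Capitals mark ATTA on either strand and TGACGTCA.
Dbh: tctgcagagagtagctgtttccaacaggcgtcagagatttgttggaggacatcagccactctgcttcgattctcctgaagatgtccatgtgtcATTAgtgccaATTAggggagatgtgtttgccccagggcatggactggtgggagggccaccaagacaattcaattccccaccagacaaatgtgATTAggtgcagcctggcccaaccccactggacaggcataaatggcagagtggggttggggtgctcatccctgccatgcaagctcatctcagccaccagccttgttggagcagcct
Th: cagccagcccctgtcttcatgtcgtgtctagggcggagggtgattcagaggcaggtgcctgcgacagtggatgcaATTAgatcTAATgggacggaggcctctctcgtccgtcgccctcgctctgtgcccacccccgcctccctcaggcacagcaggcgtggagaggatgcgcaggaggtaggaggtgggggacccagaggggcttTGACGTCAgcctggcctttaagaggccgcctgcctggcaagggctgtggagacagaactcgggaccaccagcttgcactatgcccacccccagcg

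The Dbh window held ATTA at 3 places, beginning 157, 147 and 65 bases before the start, and no TGACGTCA. The Th window held ATTA at 175 and 167 bases and TGACGTCA at 45 bases before the start, with no overlap between the motifs. ATTA is short, and 58.0% of 32851 mouse promoter windows of the same length held it at least once, and 20.0% of all the windows held it at 3 or more places. TGACGTCA was present in 1.79% of the windows. Of the 9 genes, 7 had an entry in the promoter table, and neither motif occurred in the windows of Phox2a and Tubb3. These matches describe letters in a window and say nothing about binding or about the array values.

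A signal was read against a level set on its own array, the 95th percentile of 72 chemosensory receptor genes, which sensory neurons of the nose use. The levels were signals of 135, 185 and 168 in replicates 1, 2 and 3. The distance of a probe set is its log2 signal minus the log2 level, so 0 is at the level and positive values are above it. A probe set or gene was called above background when limma's one-sided test of the distance, with Benjamini-Hochberg adjustment over the whole table, passed 0.05. By that rule 5 of the 17 probe sets of the members were called, against 48.7% of all 34945 probe sets. The 5 lay above the level on all 3 arrays, as did 51.6% of all probe sets, while 11 lay below it on every array and 1 straddled it. By the brightest probe set of each gene, 4 of the 9 genes were called (Dbh, Ddc, Elavl4 and Stmn2), against 57.3% of all genes. The median distance of the 9 genes was -0.20, against 1.52 over all genes. Since earlier calls helped to choose these genes, nothing is read from the counts.

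**Figure D1:**
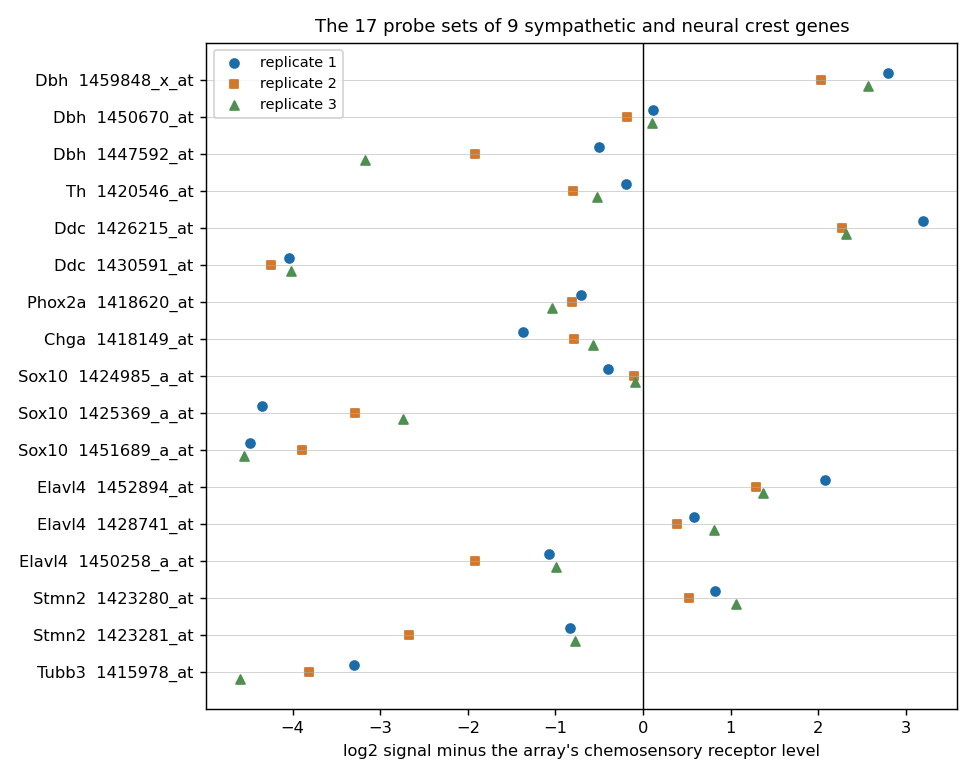
Distance of each of the 17 member probe sets from background, as log2 signal minus the level of the same array (horizontal axis, log2 units), with 1 point for each of 3 arrays and a vertical line at the level. Only 1459848_x_at of Dbh, 1426215_at of Ddc, 1452894_at and 1428741_at of Elavl4 and 1423280_at of Stmn2 have all 3 points right of the line.

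Dbh was measured by 3 probe sets, which did not agree. The brightest, 1459848_x_at, had signals of 935, 757 and 999.6 in replicates 1, 2 and 3. It lay 2.79, 2.03 and 2.57 log2 units above the level of the same arrays, a mean of 2.47 ± 0.39 (SD, n = 3), or 5.52-fold. All 3 arrays were well above the level, and replicate 2 was the lowest. The suffix _x_at is the array maker's mark for a set in which some probes also match other transcripts.

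The second set, 1450670_at, had signals of 146, 162 and 180 and distances of 0.12, -0.19 and 0.10. These values straddled the level, with a mean of 0.01 ± 0.17 (SD, n = 3). The remaining set, 1447592_at, had signals of 95.2, 49.1 and 18.7 and was below the level on every array, at -0.50, -1.91 and -3.17. The account of Dbh as above background thus rests on 1 of its 3 probe sets, the one with the _x_at suffix. Without sets marked _x_at or _s_at, the brightest remaining set of Dbh lay 0.01 log2 units above the level and was not called.

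Disagreement of this kind was found in many genes on these arrays, but less often where the brightest of 3 sets was an _x_at set. Of 1903 genes with 3 probe sets and a call by the brightest, 594 (31.2%) had no more than 1 set called, as Dbh did. Where the brightest of 3 was an _x_at set, 18 of 136 genes (13.2%), Dbh among them, had no more than 1 set called. Sets marked _x_at were called in 58.6% of 2038 cases. The brightest and the dimmest Dbh sets are both annotated to expressed sequence tags, a class in which 49.5% of 17036 sets were called, and 48.9% of 5891 sets annotated to RefSeq mRNAs were. The RNA was amplified in 2 rounds, and the 3' control set of Gapdh exceeded the 5' set by 5.00 to 5.39 log2 units and that of Actb by 3.04 to 3.40. The part of cross-hybridisation and of 3' bias in the Dbh values was not tested.

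Th, which begins the pathway and is the usual marker of catecholamine cells, was not called. Its only probe set, 1420546_at, had signals of 117, 106 and 117, below the level on all 3 arrays at -0.20, -0.80 and -0.52. The mean distance was -0.51 ± 0.30 (SD, n = 3). Absence of the transcript cannot be read from this, because a single set may hybridise poorly.

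Ddc, the decarboxylase between Th and Dbh, was called by 1 of 2 sets. Its set 1426215_at had signals of 1237, 889 and 835, which lay 3.20, 2.27 and 2.31 log2 units above the level. All 3 arrays were clear of it, replicate 1 the highest, with a mean of 2.59 ± 0.53 (SD, n = 3), or 6.03-fold. The other set, 1430591_at, read 8.20, 9.72 and 10.4 and lay at -4.04, -4.25 and -4.02. The 2 sets thus placed the same gene far above and far below the level.

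Phox2a, the homeodomain factor that acts on Dbh, was not called. Its single set, 1418620_at, had signals of 82.8, 105 and 81.6, below the level on every array at -0.70, -0.81 and -1.04. Chga, the granule protein chromogranin A of chromaffin cells, was not called either. Its single set, 1418149_at, had signals of 52.3, 107 and 114 and lay below the level on all 3 arrays, at -1.37, -0.79 and -0.57. Th, Phox2a and Chga, 3 genes that noradrenaline-making cells use beside Dbh, were thus below the level on every array. Ddc and the noradrenaline transporter Slc6a2, which such cells use too, were called by 1 set each. As for Th, absence of the Phox2a or Chga transcript cannot be read from a single set.

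Sox10, the factor of neural crest and its glia, was below the level with all 3 of its sets on all 3 arrays. The brightest, 1424985_a_at, read 102, 172 and 158 and lay just under the level at -0.40, -0.11 and -0.09. The sets 1425369_a_at and 1451689_a_at averaged -3.46 ± 0.82 and -4.31 ± 0.36 (SD, n = 3).

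Elavl4, which encodes the neuronal RNA-binding protein HuD, was the member with most agreement in the positive direction, with 2 of 3 sets called. The set 1452894_at had signals of 566, 450 and 434, which lay 2.07, 1.28 and 1.37 log2 units above the level (mean 1.57 ± 0.43, SD, n = 3; 2.98-fold). The set 1428741_at had signals of 201, 242 and 296 and lay 0.58, 0.39 and 0.81 above. Both were over the level on every array, and both are annotated to the same sequence record. The set 1450258_a_at, annotated to a RefSeq mRNA, lay below the level on every array, at -1.08, -1.91 and -0.99.

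Stmn2, a microtubule regulator of growing axons, was called by 1 of 2 sets and only narrowly. The set 1423280_at read 238, 265 and 350, which lay 0.82, 0.52 and 1.06 above the level (mean 0.80 ± 0.27, SD, n = 3; 1.74-fold). All 3 arrays were above, but without replicate 3 the call was lost at 0.67. The lowest distance of any called probe set was 0.53, and the Elavl4 set 1428741_at at 0.59 and this Stmn2 set at 0.80 lay closest to it among the called members. The nearest member sets that were not called were the Dbh set at 0.01 and the Sox10 set at -0.20. The second Stmn2 set, 1423281_at, lay at -0.83, -2.67 and -0.78.

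Tubb3, the beta-tubulin of neurons, was not called. Its single set, 1415978_at, read 13.7, 13.1 and 6.97, far below the level on each array at -3.30, -3.82 and -4.59. Among markers fixed for a sympathetic neuron or chromaffin cell, Dbh and Slc6a2 were called and Th, Phox2a, Slc18a1 and Chga were not. Among neuron markers Stmn2 and Elavl4 were called and Tubb3, Snap25 and Gap43 were not.

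After each array was centred on its median, the called Dbh set deviated from its own mean by 0.26, -0.23 and -0.03 log2 units in replicates 1, 2 and 3. The called Ddc set deviated by 0.54, -0.12 and -0.42, and the Elavl4 set 1452894_at by 0.43, -0.09 and -0.34. The Elavl4 set 1428741_at deviated by -0.08, 0.00 and 0.08, and the called Stmn2 set by -0.05, -0.08 and 0.12. Replicate 1 was thus the highest for Dbh, Ddc and 1452894_at of Elavl4, and replicate 3 for 1428741_at of Elavl4 and for Stmn2. The SD of the Dbh set over arrays was 0.25, against a median of 0.29 in 1000 sets of like signal. For Ddc it was 0.49 against 0.30. By Euclidean distance of these deviations, the called sets closest to the Dbh set were those of Pja2, Dgke, Kdm4b, Riok2 and Prune2 (0.004 to 0.010), none of them a member. With only 3 arrays such likeness is easily met: 523 of 17024 called sets (3.07%) lay within 0.1. The 4 other called member sets lay 0.38 to 0.49 away, at ranks 8147 to 11998 among the 17024 from nearest to farthest.

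The rest of the catecholamine pathway showed both called and uncalled steps. Of 16 genes with a value, 9 were called (56.2%, against 57.3% of all genes), and without the 3 members 7 of 13 were. The median distance of the 16 was 1.83, against 1.52 over all genes. Pnmt, which makes adrenaline, lay 1.97 ± 0.20 log2 units above the level (SE, n = 3), with signals of 596, 685 and 625. Slc6a2, the noradrenaline transporter of sympathetic terminals, lay 1.73 ± 0.20 above (SE), with signals of 450, 570 and 597. Both genes were above the level on all 3 arrays by the brightest set alone.

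Both calls rested on 1 probe set. The other 2 Pnmt sets averaged -2.33 and -2.84, and the other 3 Slc6a2 sets -0.63, -1.10 and -4.62. The Pnmt and Slc6a2 sets annotated to a RefSeq mRNA were among those below the level. Dbh, Ddc, Pnmt and Slc6a2 thus had 1 called set each, of 3, 2, 3 and 4.

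Vesicle storage, where Dbh acts, was not called. The vesicular monoamine transporter Slc18a2 lay at -0.14 ± 0.25 (SE), Slc18a1, its chromaffin relative, at -0.82 ± 0.27, and Cyb561, which carries electrons across the granule membrane for Dbh, at -0.35 ± 0.21. The dopamine transporter Slc6a3 lay at -0.82 ± 0.24. Breakdown genes were called: the monoamine oxidase Maoa lay 4.99 ± 0.23 above the level with both of its sets called, and Maob 2.98 ± 0.22 above.

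Th needs the cofactor tetrahydrobiopterin. Gch1, which begins its synthesis, lay at -1.49 ± 0.20 (SE, n = 3) and was not called, and neither was Spr, which ends it, at 0.21 ± 0.22. Pts, the middle enzyme, was called at 3.25 ± 0.24 by 1 of 2 sets. The recycling enzymes Qdpr and Pcbd1 were called at 7.59 ± 0.21 and 1.94 ± 0.22. Recycling of this cofactor also serves other hydroxylases, and Pcbd1 is also a transcriptional cofactor.

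**Figure D2:**
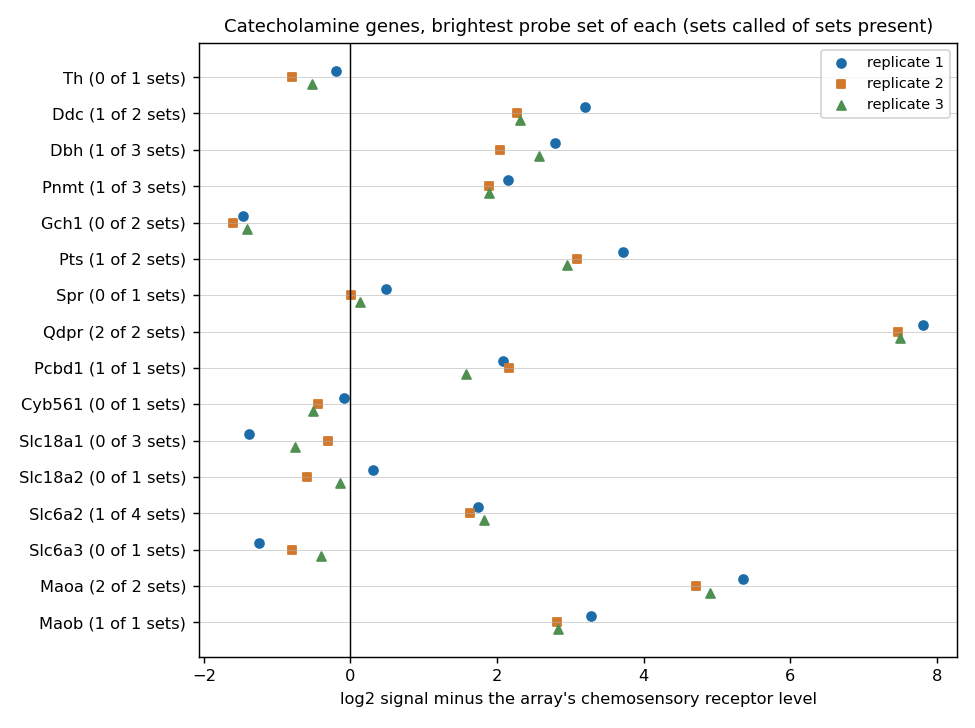
Distance of 16 catecholamine genes from background by the brightest probe set of each (log2 signal minus the level of the same array, 1 point per array), with the number of probe sets called beside each name. Ddc, Dbh, Pnmt and Slc6a2 lie right of the line on all 3 arrays, and Th, Gch1, Cyb561, Slc18a1 and Slc6a3 left of it on all 3.

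Transcription factors of the sympathoadrenal lineage were called in 3 of 10 cases (30%, median distance -1.02, against 57.3% and 1.52 for all genes). Sox4 and Sox11, which many progenitor cells use, lay 7.05 ± 0.21 and 5.48 ± 0.20 log2 units above the level (SE, n = 3), and Gata2 2.97 ± 0.24. Sox11 was called by all 6 of its sets, whereas Sox4 was called by 1 of 8 and Gata2 by 1 of 2. The more restricted factors were not called: Isl1 lay at -2.34, Insm1 at -2.07, Hand1 at -1.99 and Hand2 at -1.22.

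Genes of neural crest and Schwann cell precursors were called in 3 of 11 cases (27.3%, median -0.20). They were Snai2, a factor that mesenchyme also uses, at 7.47 ± 0.20 (SE, n = 3), the endothelin receptor Ednrb at 1.47 ± 0.20 and the neuregulin receptor Erbb3 at 1.42 ± 0.20. Ednrb was called by 1 of 3 sets and Erbb3 by 1 of 2. Cdh19, a cadherin of Schwann cell precursors, lay at -3.25, the crest factors Foxd3 at -1.76 and Pax3 at -0.81, and Tfap2a at -0.70.

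Genes of the neuronal cytoskeleton, RNA binding and synapse were called in 6 of 20 cases (30%, median -0.02), and without the members in 4 of 17. Elavl2, a relative of Elavl4, lay 4.68 ± 0.21 above the level (SE, n = 3), the microtubule protein Map2 4.15 ± 0.21, Dcx, which binds microtubules in migrating neurons, 2.82 ± 0.21 and the neurofilament Nefm 1.12 ± 0.25. Map2 and Dcx were each called by 1 of 4 sets. Stmn4 lay at -2.90, the synaptic protein Snap25 at -2.88 and Rtn1 at -2.45, all uncalled like Tubb3.

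The granule genes of chromaffin and neuroendocrine cells were called in 2 of 13 cases (15.4%, median -2.06). Both called genes have uses outside granule cells: the carboxypeptidase Cpe lay 7.68 ± 0.22 above the level (SE, n = 3) and the enkephalin precursor Penk 5.88 ± 0.31. Secretogranin 2 (Scg2) lay at -4.56, Vgf at -4.36, Scg3 at -3.99 and Scg5 at -3.79. Pcsk2 was not analysed here.

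Receptors for neurotrophins and Gdnf ligands were called in 5 of 7 cases (71.4%, median 1.79). Gfra2 lay 3.83 ± 0.21 above the level (SE, n = 3), the Bdnf receptor Ntrk2 3.65 ± 0.27, Gfra1, the coreceptor for Gdnf, 1.87 ± 0.28 and the neurotrophin 3 receptor Ntrk3 1.79 ± 0.24, with Gfra3 at 0.76 ± 0.21. Gfra1 was called by 1 of 3 sets, Ntrk2 by 2 of 8 and Ntrk3 by 1 of 8. Ret lay at -0.34 and Ngfr at 0.35, both uncalled.

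Cholinergic genes were called in 1 of 8 cases (12.5%, median -0.99), the nicotinic subunit Chrna7 at 1.42 ± 0.24 (SE, n = 3). Ache lay at -2.70, the vesicular acetylcholine transporter Slc18a3 at -2.69, Chrnb4 at -1.90 and the choline transporter Slc5a7 at -1.29. Of the adrenergic and dopamine receptors, which would answer the ligands that Dbh and Ddc make, none of 6 was called by limma, and none reached an unadjusted p under 0.05 (median -1.23). Drd3 lay at -3.02, Drd2 at -2.50, Drd4 at -1.61 and Adra2c at -0.85. The other 8 receptors of that list were not analysed here.

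**Figure D3:**
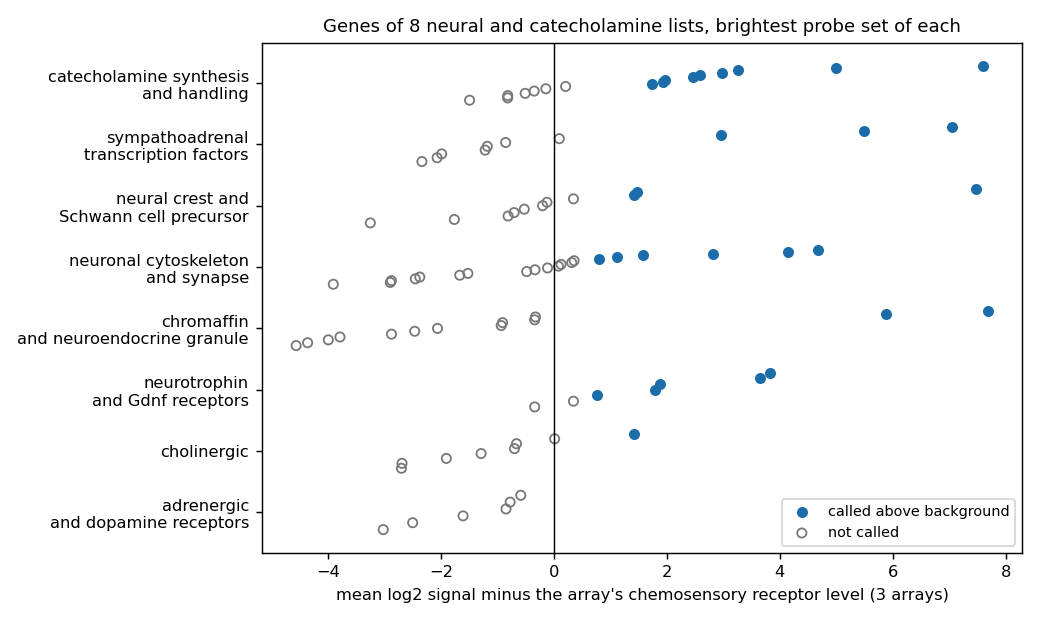
Mean distance from background of each gene of 8 lists by its brightest probe set (horizontal axis, log2 units over 3 arrays), filled where the gene was called by limma and open where it was not. Granule genes hold 2 called of 13 and adrenergic and dopamine receptors 0 of 6, while 5 of 7 neurotrophin and Gdnf receptors and 9 of 16 catecholamine genes were called.

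Members belong to families, and relatives of several members were called. Moxd1, which is related to Dbh in sequence, had signals of 889, 528 and 508 and lay 1.94 ± 0.30 above the level (SE, n = 3), whereas Moxd2 lay at -2.94. Elavl1, which most cells use, lay at 6.20 ± 0.21 and Elavl2 at 4.68, while Elavl3 was not called at -1.67. Stmn1, the stathmin of dividing cells, lay at 8.36 ± 0.20, whereas Stmn3 and Stmn4 lay at -0.33 and -2.90.

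Beside Tubb3, 6 of the 7 other beta-tubulins were called, against 57.3% of all genes. They were Tubb5 at 7.73, Tubb4b at 6.19, Tubb2a at 4.62, Tubb6 at 4.35, Tubb2b at 3.85 and Tubb4a at 0.98. Tubb1 was uncalled at -0.23. The Tubb2a value rests on an _s_at set, without which it lay at -1.36. Sox9 and Sox8, relatives of Sox10, were not called at 0.36 and -2.54, nor was Chgb, the relative of Chga, at -2.87. The enzymes Tph1 (-0.69) and Tph2 (-2.73), relatives of Th, and Hdc (-2.50), a relative of Ddc, were not called. Distances of different genes are set by probe affinity as well as by transcript, so their order does not give the order of transcript levels.

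**Figure D4:**
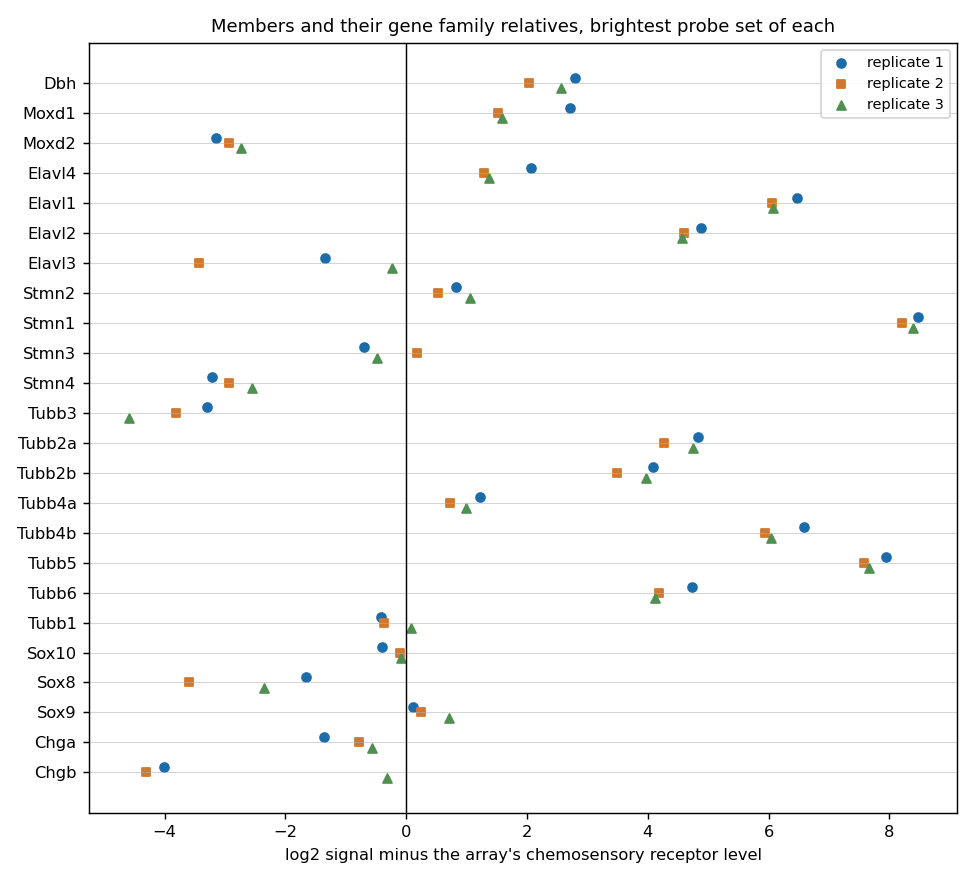
Distance from background of members and of their family relatives by the brightest probe set of each (log2 signal minus the level of the same array, 1 point per array). Dbh and Moxd1 lie right of the line on all 3 arrays, and Tubb3 lies left of it while Tubb2a, Tubb2b, Tubb4a, Tubb4b, Tubb5 and Tubb6 lie right of it.

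Markers of other cells that the sort could hold were counted too. Stromal markers were called in 8 of 8 cases (median distance 7.40), adrenal cortex markers in 2 of 8 (median -0.97), melanocyte markers in 2 of 6 (Kit and Mitf), endothelial in 3 of 4, ureteric bud in 3 of 4 and leukocyte in 1 of 3. Over all genes 57.3% were called. Kit, Mitf and the endothelial Cdh5 were each called by 1 of 2 sets, the leukocyte Csf1r by 1 of 3 and the ureteric bud Calb1 by 1 of 4. Both sets of the ureteric bud Epcam were called, and the endothelial Kdr and Tek and the ureteric bud Wnt11 had a single set. In the adrenal cortex list Mc2r lay at 3.26 and Cyp21a1 at 0.56, whereas Nr5a1 lay at -0.52 and Nr0b1 at -3.51. Cyp21a1 was called in the fit over genes, but neither of its sets was called in the fit over probe sets. Fewer cells of a type and less RNA per cell cannot be told apart in pooled RNA, and the part of any of these cells in the Dbh and Ddc values was not tested.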

How the data were processed

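Array intensity, deposited by the authors as linear values for each probe set, was the only unit. GCOS is the software in the submitters' processing notes, and its algorithm is not stated there. The mean with 2% trimmed at each end was 1500.01 on every array. All values were positive, and log2 needed no pseudocount. Of 45101 probe sets, 34945 had 1 symbol in the platform annotation, and 64 controls, 932 with several symbols and 9160 with none were left out. A gene took its set with the highest mean log2 signal. Distances were tested with limma 3.58.1 in R 4.3.3 (lmFit with an intercept, eBayes, one-sided, Benjamini-Hochberg), a fit tested on simulated data. The members and lists were chosen with earlier results of these data known, so the calls of list genes are descriptions too. Per list, the 4 called and 4 uncalled genes farthest from the level are named, with every catecholamine gene, every relative and the 5 nearest profiles, and Nefm, Gfra3 and the markers of other cells were named after their values were seen. Whether the pools came from separate litters is not recorded, so the spread may be technical, and 3 arrays limit the precision.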

Additional observations from a re-analysis of the deposited data

How the results depend on the processing

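Of the values of the 9 member genes under the alternatives, 6 lost the call and 2 called genes fell below the level. The other 116 kept their call or lack of one, though the uncalled Sox10 lay at 0.15 with the level at the 90th percentile. Taking the mean over probe sets, for the receptor genes that set the level too, changed most: 0 member genes were called by limma then, Dbh lay at 0.40 and Elavl4 at 0.48 without a call, and Ddc (-0.56) and Stmn2 (-0.12) fell below the level. That setting also gave 5 catecholamine, 1 sympathoadrenal and 3 neuronal genes called, and placed Pnmt (-0.86), Slc6a2 (-0.96), Sox4 (-0.54), Erbb3 (-0.75), Map2 (-0.38), Ntrk2 (-0.80), Ntrk3 (-1.79) and Gfra1 (-1.05) below the level; these genes hold dim sets beside a bright one. Dbh was not called without sets marked _x_at, _s_at or _a_at (0.090), nor without _x_at and _s_at sets (0.0092, a setting added after seeing the data), where Tubb2a lay at -1.28 and -1.36. With the level at the 99th percentile 3 member probe sets were called and Stmn2 was lost (0.31). Gfra3 (0.27) and Tubb4a (0.50) were lost there too, Gfra3 also without replicate 3 (0.67), and Gata2 by the mean over probe sets (0.67). With the level at the 90th percentile Spr (0.56), Ngfr (0.70), Sox9 (0.71) and the neuronal Syt1 (0.67) and Nefl (0.71) gained a call. Spr and Sox9 also gained it where a gene had only to lie above the level on each array, and Ngfr without replicate 2 (0.72). Leaving out each replicate in turn gave 3 to 4 member probe sets and 3 to 4 member genes, with Dbh at 2.30 to 2.68. Replicate 1 or replicate 3 left out each gave 3 member probe sets, against 5 with all arrays. Sox10 has no set left without _a_at sets, and Tubb3 none with the dimmest 25% of sets left out. No paired analysis was possible because the series holds 1 group. Depth cannot be read from array intensities. No sample could be tested as an outlier, since the group has 3 arrays.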
